A study of Mus musculus with 9 samples.

Results

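The comparison of BL6 with SV129 lung rested on 6 of the 9 oligonucleotide arrays of the series, chosen by the strain in each array's title, 3 per strain. Each array read the total RNA of a whole lung homogenate, made from the right lung of mice of the strain C57/BL6 (here BL6) or SV129. The hypoxic groups, with 2 arrays per strain, had spent 4 weeks at 50 kPa in hypobaric hypoxia, and the normoxic groups, with 1 array per strain, as long at 85 kPa, that of Denver's altitude. The labels give no age, sex, breeder or allele, nor whether each array had its own animal, so the p-values measure only how these arrays spread, which may be technical. The 3 FVB/N arrays entered no test of this comparison.

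C57BL/6 and the 129 strains are inbred mouse strains that differ at many loci, and both are widely used as the background of engineered mutations. Chronic hypoxia narrows and remodels the small pulmonary arteries in mice, and strains differ in how far it does so. Whole lung holds surfactant-making alveolar type 2 cells, thin type 1 cells, a dense capillary endothelium, secretory and ciliated airway cells and many immune cells. In such bulk tissue fewer cells of a type and less RNA per cell cannot be told apart.

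The 6 arrays carried the lung markers Sftpc and Ager at like levels in both strains. Both stood near the top of the scale, where quantile normalization leaves little room for a difference. Sftpc, the surfactant protein of alveolar type 2 cells, had mean log2 levels of 14.83 ± 0.194 in BL6 and 14.78 ± 0.142 in SV129 (SD, n = 3 each), and Ager, a marker of type 1 cells, 14.73 ± 0.0965 and 14.84 ± 0.101. Hypoxic BL6 array 2 stood apart, since it also carried kidney transcripts: 28 kidney markers averaged a log2 level of 11.46 there, 6.38 and 6.60 on the other BL6 arrays and 6.05 to 6.26 on the SV129 arrays. Every gene was therefore also fitted on the 5 arrays without it. Pairwise correlations of the 6 arrays ran from 0.908 to 0.970. The number of arrays limits the precision of each value below.

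Of 12868 genes tested, 429 differed between the strains, by up to 67.6-fold. Transcripts of proteins that airway secretory cells release, such as Bpifa1, Reg3g and Scgb3a1, were among the highest in BL6 relative to SV129. With each array left out in turn, Bpifa1, the gene of the 67.6-fold difference, passed in 3 of 6 fits. Reg3g passed in 4 of these fits and Scgb3a1 in all 6. Immediate early transcription factors, led by Egr1 and Fos, were higher in SV129. Among interferon-inducible GTPases, Gbp2b was far higher in SV129, while 6 others were modestly higher in BL6 on 6 arrays. These 6 calls did not hold when any BL6 array or the normoxic SV129 array was left out. Genes of the alveolar epithelium, smooth muscle, the hypoxia-inducible factor pathway and the circadian clock gave 2 calls or fewer per list. With 3.33% of all genes passing, few calls would fall in lists of these sizes.

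Levels are log2(signal + 16) after quantile normalization, and differences are BL6 minus SV129 from a limma fit with the exposure as covariate. A gene passed at a Benjamini-Hochberg adjusted p below 0.05 over all 27022 probe sets tested and was read through its brightest probe set. By this rule 429 of 12868 genes passed, 3.33% of those tested. Of these, 232 (1.8%) were higher in BL6 and 197 (1.53%) were higher in SV129. Over probe sets the count was 956, or 3.54%, with 535 (1.98%) higher in BL6 and 421 (1.56%) higher in SV129. The median absolute difference of the genes that passed was 1.24 on the log2 scale, against 0.211 over all genes tested. Differences of at least 4-fold numbered 89, of which 57 were higher in BL6 and 32 in SV129. At least 8-fold differences numbered 35, 23 of them higher in BL6 and 12 in SV129.

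**Figure D1:**
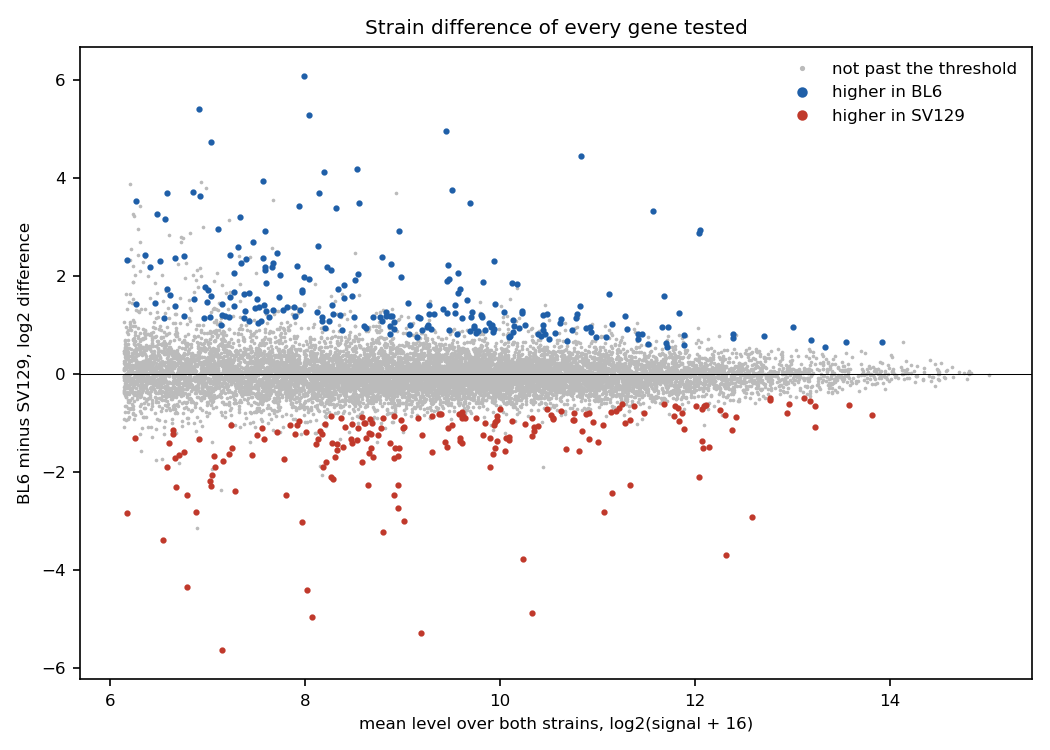
Each point is 1 of the 12868 genes tested, with its mean log2 level over both strains on the x axis and its log2 difference, BL6 minus SV129, on the y axis. Blue points (232 genes) passed higher in BL6 and red points (197 genes) higher in SV129, and the largest reached 6.08 and -5.64.

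The 3 arrays of one strain lay wholly above the 3 of the other for 423 of the 429 genes. Over all genes tested such separation was found for 2694, or 20.9% (9.87% higher in BL6, 11.1% in SV129), so it was common among genes that did not pass too. On the 5 arrays without hypoxic BL6 array 2, with 2 residual degrees of freedom in place of 3, 147 genes passed (1.14%), 82 higher in BL6 (0.637%) and 65 in SV129 (0.505%), from 311 probe sets (1.15%). Of these genes 139 were among the 429. All 429 kept their sign on the 5 arrays, and each of their differences stayed within 1.5 times. Leaving out another array also changed the count: 107 genes passed without hypoxic BL6 array 5, 92 without normoxic BL6 array 1, 90 without normoxic SV129 array 1, 330 without hypoxic SV129 array 2 and 513 without hypoxic SV129 array 5. Of the 32 genes with the largest differences, the 16 highest in each strain, 28 passed each time, and the exceptions were Bpifa1, Reg3g, Fbp2 and Tnfrsf14. When 1 normoxic array is left out, the other only sets the exposure term. Both such fits therefore take the strain difference from the 4 hypoxic arrays, and they are not separate checks, here and below.

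**Figure D2:**
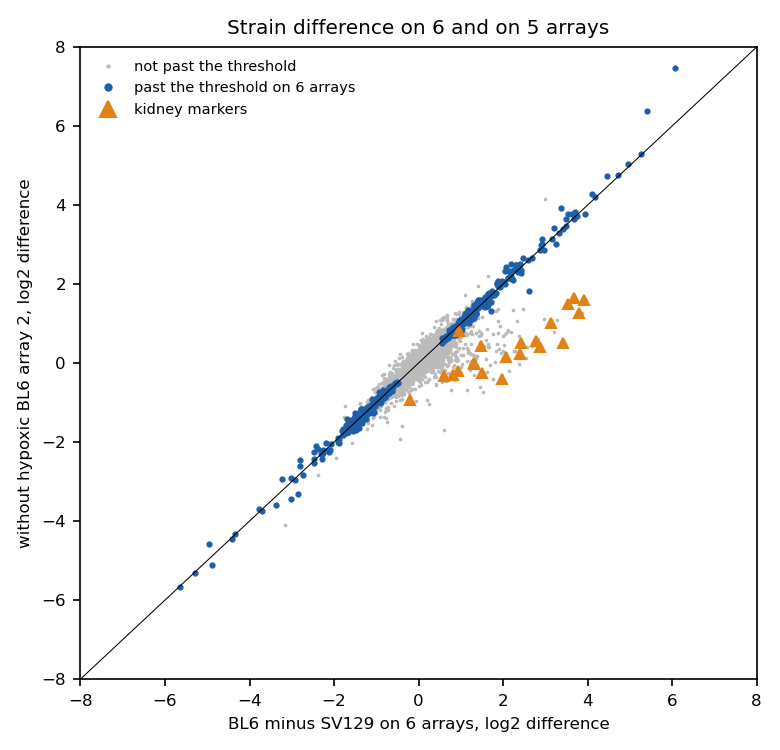
Each point is a gene, with its log2 difference on 6 arrays on the x axis and on the 5 arrays without hypoxic BL6 array 2 on the y axis. Both fits share these 5 arrays, so they are not separate checks. The 429 genes that passed (blue) lie along the line of equal values. Most of the 21 kidney markers (orange triangles) lie below that line on the right, with a median of 2.06 on 6 arrays and 0.41 on 5.

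Airway secretory cells line the conducting airways and release mucins, antimicrobial proteins and secretoglobins onto the airway surface. Of 19 such genes tested, 8 rose in BL6 relative to SV129 and none fell, with a list median of 0.70 on 6 and on 5 arrays beside -0.03 over all genes. In the order used throughout, hypoxic array 2, hypoxic array 5 and the normoxic array, Bpifa1, a secreted antimicrobial protein of the upper airway, had log2 levels of 7.89, 11.44 and 13.76 in BL6 and of 4.74, 4.99 and 5.12 in SV129. All 3 BL6 arrays lay above all SV129 arrays, but they spread widely among themselves, with the normoxic array at the top. The difference was 6.08 ± 1.00 (SE; adjusted p = 0.0203), which is 67.6-fold, and 7.46 on the 5 arrays. It no longer passed without hypoxic BL6 array 5 (5.43) or without either normoxic array (4.80).

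Reg3g, a secreted lectin that kills Gram-positive bacteria, showed the same order of BL6 arrays, at 7.60, 10.36 and 10.90 against 4.27, 4.15 and 4.23 in SV129. Its difference of 5.41 ± 0.692 (adjusted p = 0.00779) fell to 4.77 without either normoxic array and then no longer passed. Scgb3a1, a secretoglobin, was bright on the BL6 arrays at 12.12, 13.26 and 13.79, and stood at 8.22, 7.94 and 9.66 in SV129. That difference of 4.45 ± 0.287 (adjusted p = 0.000494) passed whichever array was left out. Tff2, a trefoil peptide that stabilizes mucus, was measured at 7.51, 8.06 and 8.53 in BL6 and at 4.31, 4.79 and 4.40 in SV129, a difference of 3.53 ± 0.320 (adjusted p = 0.00213) that also passed each time.

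The other 4 secretory genes that passed were Bpifb1, a relative of Bpifa1 (3.37), Ltf, the iron-binding lactotransferrin (2.19), Muc5b, a gel-forming mucin (2.02), and Pigr, the receptor that carries IgA across epithelium (0.89). Each of these lost its call in at least 2 of the 6 fits that left out an array. Bpifb1 lost it without hypoxic BL6 array 5 or either normoxic array, and Ltf only without either normoxic array. Muc5b lost it without each BL6 array in turn or the normoxic SV129 array. Pigr kept it only without hypoxic SV129 array 5. The 2 fits without a normoxic array both rest on the 4 hypoxic arrays. Over the 6 fits the differences of these genes ran from 2.74 to 3.92, 1.94 to 2.51, 1.65 to 2.36 and 0.81 to 0.95 in that order. The number of the 8 that passed was 6 without hypoxic BL6 array 2, 4 without hypoxic BL6 array 5, and 2 without either normoxic array.

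The most abundant products of the same cells did not follow. Scgb1a1, the club cell secretoglobin, differed by -0.02 (adjusted p = 0.906), Scgb3a2 by 0.11 (adjusted p = 0.449) and Cyp2f2, a club cell cytochrome, by 0.07 (adjusted p = 0.654). Scgb1a1 stood at 14.89 to 15.06 on all 6 arrays, the top of the scale, where quantile normalization leaves little room for a difference. None of 17 genes of ciliated cells passed, although 13 of them had a difference above 0 and their median was 0.26 (0.46 on 5 arrays). In hypoxic FVB/N lung Bpifa1 stood at 5.22 and 4.93, and all 8 secretory genes lay nearer to SV129.

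Lists of fat, neutrophil and platelet genes also had members higher in BL6 and none lower, the platelet list, drawn up after its values were seen, with 7 of 19 (summed signal 12702 to 15581 in BL6 and 9091 to 10461 in SV129). Of 12 adipocyte genes tested, 3 rose in BL6: Car3, a carbonic anhydrase abundant in fat (3.49 ± 0.274, adjusted p = 0.00111), Adipoq, the hormone adiponectin (2.91 ± 0.260, adjusted p = 0.00203), and Retn, resistin (2.40 ± 0.344, adjusted p = 0.0122). Summed signal over the 14 adipocyte genes on the array was 12876 to 26638 in BL6 and 9858 to 11597 in SV129. Car3 was highest on the normoxic array of both strains, at 13.19 in BL6 and 10.06 in SV129. Car3 and Adipoq passed whichever array was left out, and Retn lost its call without hypoxic BL6 array 5 or either normoxic array (1.95 to 2.71). The part of these cells in the secretory genes' difference was not tested.

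Of 11 neutrophil genes, 3 rose in BL6. Chil1, a chitinase-like protein also made by other lung cells, was measured at 13.40, 13.58 and 13.58 in BL6 and at 10.79, 10.61 and 10.38 in SV129, a difference of 2.93 ± 0.137 (adjusted p = 0.000152) that passed in every fit. Ngp, a granule protein, differed by 1.25 (adjusted p = 0.0406) and lost its call in each of the 6 fits that left out an array, where it lay between 1.10 and 1.60. Ltf is also an airway gene and was counted in both lists. The calprotectin genes S100a8 (0.36, adjusted p = 0.532) and S100a9 (0.32, adjusted p = 0.794), the most abundant of the list, did not pass.

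Interferon-inducible GTPases attack the membranes around intracellular microbes, and interferon-gamma and type I interferons switch them on. Of 11 tested, 6 rose in BL6, each by less than 3-fold, and Gbp2b alone rose in SV129. The list median was 0.85 on 6 arrays and 0.83 on 5. Promoter sequence was available for 5 of the 7 genes that passed. The 150 bases before the start of each, from RefSeq's table on build GRCm38.p6, are shown because these genes moved together except for Gbp2b: Igtp at chr11:58199406-58199555 (plus strand), Irgm2 at chr11:58214827-58214976 (plus), Irgm1 at chr11:48871421-48871570 (minus), Gbp2 at chr3:142620513-142620662 (plus) and Gbp2b at chr3:142594697-142594846 (plus). Each runs 5′ to 3′ on the gene's strand, and capitals mark matches to GAAA followed after any 2 bases by GAAA, the core of interferon-stimulated response elements, on either strand.
Igtp: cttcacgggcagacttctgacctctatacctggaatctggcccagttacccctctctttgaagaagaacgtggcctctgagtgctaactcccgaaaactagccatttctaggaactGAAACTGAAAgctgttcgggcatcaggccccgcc
Irgm2: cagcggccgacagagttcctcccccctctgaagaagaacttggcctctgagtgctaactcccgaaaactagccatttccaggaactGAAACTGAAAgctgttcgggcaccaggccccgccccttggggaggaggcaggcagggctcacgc
Irgm1: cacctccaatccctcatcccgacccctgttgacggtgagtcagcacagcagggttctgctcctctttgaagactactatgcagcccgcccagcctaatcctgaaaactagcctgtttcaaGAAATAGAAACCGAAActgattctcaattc
Gbp2: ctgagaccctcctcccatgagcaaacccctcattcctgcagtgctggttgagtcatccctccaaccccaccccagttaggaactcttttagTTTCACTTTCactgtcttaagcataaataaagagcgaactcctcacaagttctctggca
Gbp2b: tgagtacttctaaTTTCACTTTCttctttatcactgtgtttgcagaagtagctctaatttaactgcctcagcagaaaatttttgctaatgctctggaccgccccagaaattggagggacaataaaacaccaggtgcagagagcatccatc

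The spaced GAAA pair occurs in 1.59% of the 32851 promoter windows of this length. All 5 windows held the GAAA pair. Counted back from the start, it lay at -34 to -25 in Igtp, at -64 to -55 in Irgm2, at -30 to -21 and overlapping at -24 to -15 in Irgm1, at -59 to -50 in Gbp2 and at -137 to -128 in Gbp2b. A match is a description of these letters and no measure of binding. The reference is that of C57BL/6J, and SV129 sequence was not used here.

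Igtp had log2 levels of 10.83, 10.76 and 10.95 in BL6 and of 9.32, 9.72 and 9.78 in SV129, a difference of 1.24 ± 0.161 (adjusted p = 0.00821). Irgm2, which neighbours Igtp and resembles it, differed by 1.23 ± 0.183 (adjusted p = 0.0142), and probes could share transcripts within this family. The other 4 were Gbp6 (1.20, adjusted p = 0.0413), Iigp1 (0.93, adjusted p = 0.0405), Gbp2 (0.85, adjusted p = 0.0195) and Irgm1 (0.83, adjusted p = 0.0432). BL6 and SV129 arrays did not overlap for any of the 6, as for 423 of the 429 genes that passed and 20.9% of all genes tested. None of these 6 calls held on the 5 arrays without hypoxic BL6 array 2, nor without hypoxic BL6 array 5 or without either normoxic array, although over the 6 fits that left out an array their differences lay between 0.71 and 1.40. In the hypoxic FVB/N arrays 5 of the 6, all but Gbp6, were nearer to BL6.

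Gbp2b, formerly Gbp1, went the other way and much further. It was near the bottom of the scale in BL6, at 5.83, 5.72 and 5.89, and read 10.08, 10.32 and 10.29 in SV129. The difference was -4.41 ± 0.183 (adjusted p = 8.61e-05), 21.3-fold higher in SV129, and it passed whichever array was left out. The hypoxic FVB/N arrays read 5.31 and 4.53, on the BL6 side.

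**Figure D3:**
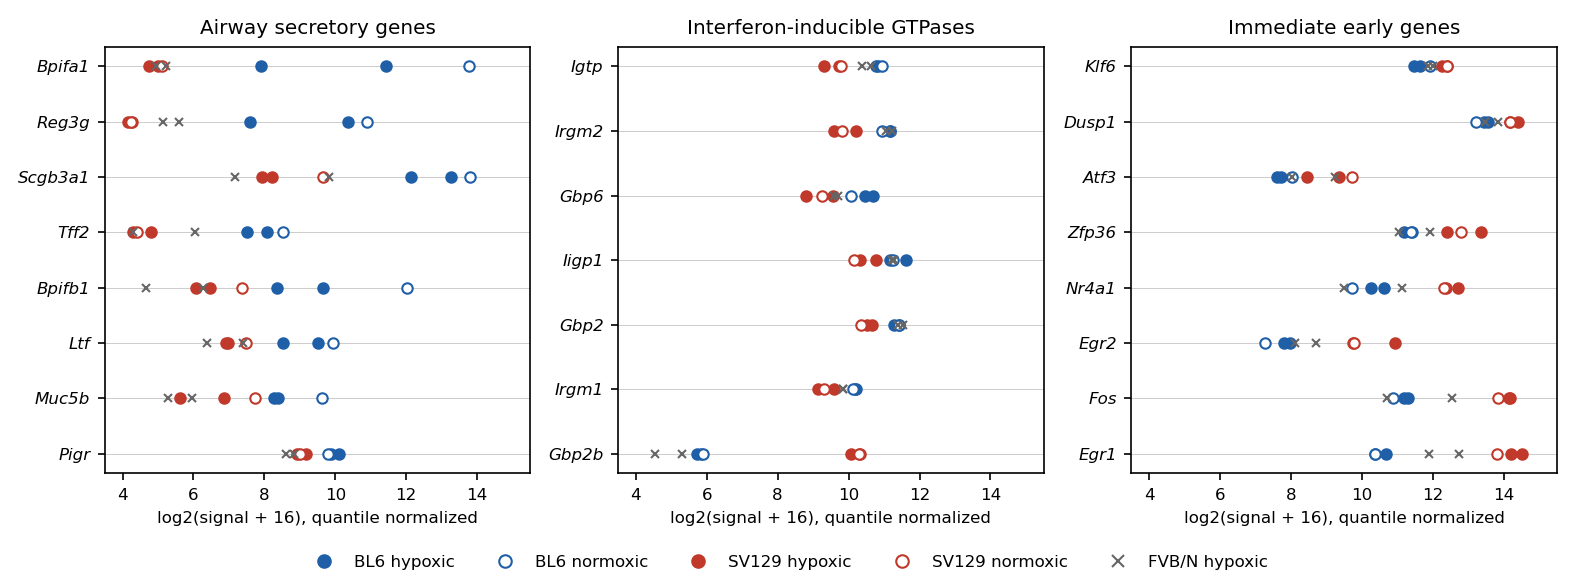
Points are single arrays, with the log2 level on the x axis and 1 gene per line, for the members that passed of the airway secretory, interferon-inducible GTPase and immediate early lists. Blue is BL6, red SV129 and grey crosses the hypoxic FVB/N arrays, with open circles for normoxic arrays. Gbp2b is the only GTPase with the red points (10.08 to 10.32) right of the blue ones (5.72 to 5.89).

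The Ifi200 genes encode DNA-sensing proteins that interferon induces, and they lie side by side in the genome. Of 8 on the array, 4 passed the filter on dim probe sets and 2 rose in BL6. Ifi209 was measured at 10.08, 10.01 and 9.88 in BL6 and at 6.08, 6.48 and 6.35 in SV129, a difference of 3.69 ± 0.194 (adjusted p = 0.000191). Ifi213 differed by 3.20 ± 0.333 (adjusted p = 0.00333), and both passed whichever array was left out. Mndal (0.59, adjusted p = 0.0672) and Ifi203 (0.46, adjusted p = 0.427) did not pass. Of the members left out as dim, Ifi202b went the other way, at 4.24, 4.22 and 4.62 in BL6 and 7.22, 7.30 and 7.03 in SV129. Ifi204 was higher in BL6, at 5.26, 5.62 and 5.86 against 4.96, 4.92 and 4.96, and the strains overlapped for Aim2 and Ifi207. None of these was tested.

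The wider type I interferon list of 29 genes had 4 that rose in BL6 and 1 that rose in SV129, with a median of 0.41 (0.42 on 5 arrays). Bst2, the tetherin that holds budding virus at the cell surface, differed by 1.42 (adjusted p = 0.0491), Zbp1, a sensor of Z-form nucleic acid, by 1.37 (adjusted p = 0.0212), Ifi27l2a by 1.29 (adjusted p = 0.0436) and Oasl2 by 1.21 (adjusted p = 0.0182). None of these 4 passed without hypoxic BL6 array 2, hypoxic BL6 array 5 or either normoxic array, and over the 6 fits that left out an array their differences lay between 0.97 and 1.68. Xaf1, an interferon-inducible partner of the apoptosis inhibitor XIAP, was read at 6.64, 6.50 and 6.50 in BL6 and at 11.90, 11.97 and 11.63 in SV129, a difference of -5.29 ± 0.161 (adjusted p = 4.14e-05). Its other probe set passed in the opposite direction, higher in BL6 by 3.26 (adjusted p = 0.000612), with 11.09, 10.86 and 10.41 in BL6 against 7.87, 7.24 and 7.46 in SV129. The direction of Xaf1 thus depends on the probe set read.

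Members of the TRIM family, ubiquitin ligases of which several restrict viruses, gave 3 of the 16 largest rises in BL6. Trim12a was even across the BL6 arrays, at 9.37, 9.50 and 9.33, and near the bottom of the scale in SV129, at 5.25, 4.18 and 4.60, and differed by 4.72 ± 0.302 (adjusted p = 0.000494). Trim34a differed by 4.11 ± 0.277 (adjusted p = 0.000592), but its other probe set passed in the opposite direction (-2.06, adjusted p = 0.00963), and with the mean of both sets the difference of 1.03 did not pass (adjusted p = 0.0789). Trim30d differed by 3.62 ± 0.260 (adjusted p = 0.000754). The 3 are paralogs, and probes of one may read another. Whether sequence variants between the strains lie under the probes of these or other genes, and so change the signal, was not tested.

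Among antigen-presentation genes 1 of 16 class I and 1 of 11 class II genes tested rose in BL6 and none fell. Of all genes 1.8% passed higher in BL6, and in lists this short 1 call says little about the family. H2-M3, a class Ib molecule that presents bacterial peptides, was measured at 10.83, 10.69 and 10.26 in BL6 and at 8.40, 8.98 and 8.25 in SV129, a difference of 2.05 ± 0.192 (adjusted p = 0.00228) that passed in every fit. Ctss, a protease that prepares class II molecules, differed by 0.72 and passed only with all 6 arrays or without an SV129 hypoxic array. In the natural killer receptor complex, where receptor genes lie in a cluster, 3 of 9 tested genes rose in BL6 and 2 in SV129. Klra8, the Ly49H receptor, differed by 2.31 ± 0.372 (adjusted p = 0.0186), Klrb1b by 2.17 (adjusted p = 0.0158) and Klrk1, the NKG2D receptor, by 1.17 (adjusted p = 0.0356). Klra17 differed by -2.46 ± 0.294 (adjusted p = 0.0058) and Clec2d, the ligand of an inhibitory NK receptor, by -1.12 ± 0.116 (adjusted p = 0.00331). None of the 5 passed every time an array was left out, and the differences of Klra8 then ran from 1.78 to 2.57 and those of Klra17 from -2.69 to -2.25. Klra genes are near copies of one another, so their single values are uncertain.

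The T and NK cell list of 18 genes had Ccl5 (1.40) and Nkg7 (1.31) higher in BL6 and Il7r (-0.78) higher in SV129, with a median of 0.08, and none of the 3 passed every time an array was left out. In the B and plasma cell list of 16, 2 genes passed in each direction, and 13 differences lay above 0. Igha, the heavy chain of IgA, was higher in SV129 at 12.51, 12.51 and 12.39, against 8.83, 9.57 and 10.58 in BL6, a difference of -2.81 ± 0.323 (adjusted p = 0.00517). Jchain, which joins IgA into dimers, followed with -2.27 ± 0.292 (adjusted p = 0.00791). Both passed in every fit, and both other Igha probe sets passed in the same direction. Ighm, the heavy chain of IgM (0.75), and Fcer2a, the B cell receptor CD23 (1.07), were higher in BL6. Fcer2a lost its call in 4 of the 6 fits that left out an array and Ighm in 5, and with the mean of its probe sets Ighm differed by 0.06 (adjusted p = 0.852). The list median was 0.62. Of 20 genes of alveolar macrophages only Marco, a scavenger receptor, passed, beside 1.53% of all genes higher in SV129. Marco read 7.24, 7.17 and 8.12 in BL6 and 9.84, 9.75 and 9.75 in SV129, a difference of -2.27 ± 0.231 (adjusted p = 0.00308) in every fit past the threshold.

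Immediate early genes are transcribed within minutes of a stimulus without new protein synthesis, and many encode transcription factors. Of 25 tested, 8 rose in SV129 and none in BL6, 23 had a difference below 0, and the median was -0.85 (-0.63 on 5 arrays). Egr1, a zinc finger factor, was among the brightest genes of the comparison in SV129, at 14.21, 14.51 and 13.80 against 10.67, 10.38 and 10.38 in BL6. The difference was -3.70 ± 0.152 (adjusted p = 8.61e-05), 13.0-fold higher in SV129. Fos, the partner of Jun in AP-1, was measured at 14.18, 14.14 and 13.83 in SV129 and at 11.30, 11.20 and 10.88 in BL6, a difference of -2.92 ± 0.100 (adjusted p = 5.27e-05). For both genes the strains were far apart and the arrays of a strain close together, in hypoxic and normoxic lung alike.

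Nr4a1, an orphan nuclear receptor, differed by -2.27 ± 0.175 (adjusted p = 0.00103), and with Egr1 and Fos it passed whichever array was left out. Egr2 (-2.48), Zfp36, which destabilizes cytokine mRNAs (-1.52), Atf3 (-1.40), Dusp1, a phosphatase of MAP kinases (-0.85), and Klf6 (-0.66) also passed on 6 arrays. Of the 8, 5 passed without hypoxic BL6 array 2, 5 without hypoxic BL6 array 5, 6 without hypoxic SV129 array 2 and 3 without either normoxic array. Summed over the 26 genes on the array, the signal was 64224 to 68906 in BL6 and 116685 to 169931 in SV129. Junb (-1.90, adjusted p = 0.0854), Fosb (-1.94, adjusted p = 0.112) and Jun (-0.30, adjusted p = 0.358) did not pass. The hypoxic FVB/N arrays lay between the strains for Egr1, at 11.88 and 12.75, and differed from each other for Fos, at 10.70 and 12.53.

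The list of 37 chemokines and receptors had a median of 0.10, with 23 differences above 0. In it Cxcl2 (-2.28, adjusted p = 0.0471), Ccl3 (-1.66) and Cxcl1 (-1.55), which draw neutrophils and monocytes, rose in SV129, and Ccl5 alone rose in BL6. Cxcl2, Ccl3 and Cxcl1 each lost their call without any of the BL6 arrays or without the normoxic SV129 array. Ccl3 and Cxcl1 lost it without hypoxic SV129 array 2 too. Over the fits that left out an array Cxcl2 ranged from -2.88 to -1.69. Ccn1, a matrix protein that many growth signals induce, and the cytokine Il6 were chosen after their values were seen. Ccn1 differed by -2.11 ± 0.197 (adjusted p = 0.00226) and passed in every fit, and Il6 by -2.30 ± 0.359 (adjusted p = 0.0168), with passing values in 2 of the 6 fits. Of 25 glucocorticoid and heat shock genes, Dusp1, Cebpd (-1.14) and Errfi1 (-1.08) rose in SV129, and the list median was 0.10.

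In the vessel and matrix lists genes passed in both directions, in shares above the 3.33% of all genes. Of 44 genes of vascular tone and pulmonary hypertension 2 rose in BL6, Trpv4, a calcium channel of endothelium and smooth muscle (1.61, adjusted p = 0.0197), and Ramp1, a subunit of the CGRP receptor (0.91). Higher in SV129 were Ptgs2, the inducible cyclooxygenase (-1.41, adjusted p = 0.0273), Cacna1c, the L-type calcium channel (-1.11), Edn3, an endothelin (-0.99), and Ace, the angiotensin-converting enzyme (-0.83, adjusted p = 0.0485). Ace lost its call in each of the 6 fits that left out an array, and none of the other 5 passed in all of them. With the mean of its probe sets Edn3 differed by -0.55 (adjusted p = 0.129). Edn1, the main endothelin of lung, differed by -0.70 (adjusted p = 0.0620).

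Pdgfd, a growth factor for smooth muscle cells and fibroblasts, was measured at 9.65, 10.05 and 10.22 in BL6 and at 7.52, 7.41 and 7.87 in SV129, a difference of 2.38 ± 0.181 (adjusted p = 0.00101) past the threshold in every fit. The rest of the VEGF, angiopoietin and PDGF list of 27 leaned to SV129, with a median of -0.30 (-0.21 on 5 arrays) and 23 differences below 0: Fgfr4 (-1.32, adjusted p = 0.0054), Flt1, a VEGF receptor (-0.95, adjusted p = 0.0234), and Nrp1, a co-receptor (-0.50), passed. Flt1 was the only one of 25 endothelial genes that passed, and it lost its call in 5 of the 6 fits that left out an array. Nrp1 did so in 5 too and Fgfr4 without either normoxic array (adjusted p up to 0.0548), and Fgfr4 differed by -0.87 with the mean of its probe sets. Of 48 matrix genes 38 had a difference below 0, with a median of -0.26. There Cthrc1 (2.37 ± 0.221, adjusted p = 0.00226), Mfap5 (1.39) and Mmp3 (1.45) rose in BL6, and Tnc, tenascin C (-1.11, adjusted p = 0.0185), Col4a3 (-0.98), Fn1, fibronectin (-0.79), and Col6a3 (-0.74) rose in SV129. Cthrc1 and Mfap5 passed in every fit and the other 5 did not.

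**Figure D4:**
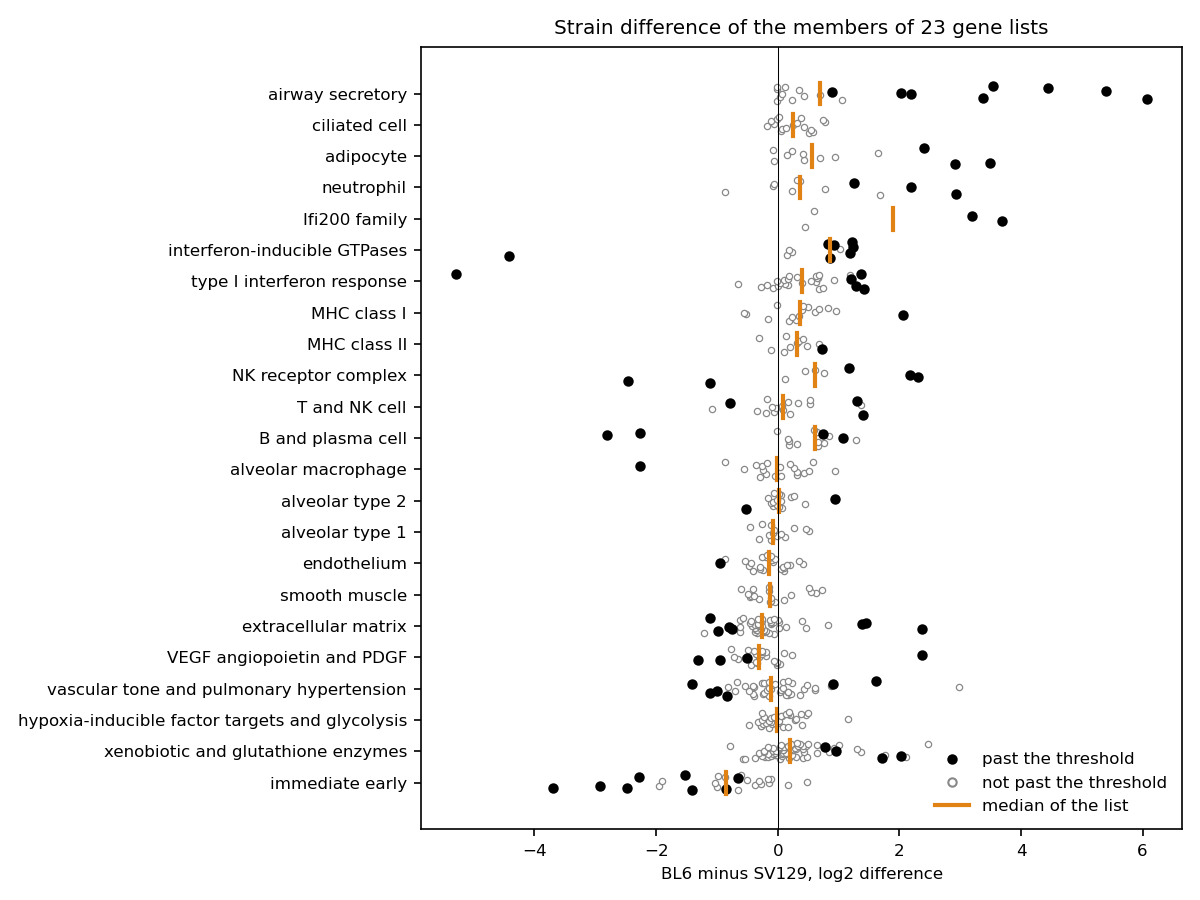
Each point is a gene of 1 of 23 lists, with its log2 difference, BL6 minus SV129, on the x axis; filled points passed and orange bars are list medians. Immediate early genes lie mostly left of 0 (median -0.85) and airway secretory genes reach furthest right (6.08). No hypoxia-inducible factor target passed, beside 3.33% of all genes.

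Several lists gave no call. Beside the 3.33% of all genes that passed, few calls would fall in lists of these sizes, so their absence says little. None of 34 hypoxia-inducible factor targets and glycolytic enzymes passed, with a median of -0.02 (0.01 on 5 arrays), and none of 41 BMP and TGF-beta genes, 20 clock genes, 22 complement genes, 19 smooth muscle genes or 14 alveolar type 1 genes. The BMP and TGF-beta list leaned to SV129, with 30 differences below 0, 11 above and a median of -0.19 (-0.13 on 5 arrays). Of the clock genes 15 lay below 0 and 5 above, with a median of -0.20 (-0.03 on 5 arrays). Of 17 alveolar type 2 genes, Napsa, a protease that processes surfactant protein B and is also made in kidney, rose in BL6 (0.95, adjusted p = 0.0445; 0.43 with the mean of its probe sets, adjusted p = 0.168), and Abca3, a lipid transporter, was higher in SV129 (-0.53). Of 68 enzymes of xenobiotic and glutathione metabolism, 4 rose in BL6, beside 1.8% of all genes. They were Cyp1a1, an enzyme that aryl hydrocarbon receptor ligands induce (2.03 ± 0.290, adjusted p = 0.0121), Akr1c19 (1.71), Gclc, which makes glutathione (0.95), and Gsto1 (0.78). None of these 6 passed every time an array was left out, and Cyp1a1 lost its call without hypoxic BL6 array 5 or either normoxic array (1.70 to 2.32).

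Apart from Ppbp, a member of the platelet list, the remaining genes with the largest differences fell in none of the groups above. Sox11, a transcription factor of developing tissue, was measured at 10.77, 11.22 and 10.06 in BL6 and at 4.48, 6.13 and 5.61 in SV129, a difference of 5.27 ± 0.451 (adjusted p = 0.00154). All 5 other Sox11 probe sets had the same sign and 3 passed, and the mean of its sets differed by 2.19. Rpgrip1, a scaffold protein of the photoreceptor cilium, read 12.14, 12.12 and 11.52 in BL6 and 6.96, 7.96 and 5.98 in SV129, a difference of 4.96 ± 0.294 (adjusted p = 0.000341). Galc, the lysosomal enzyme that degrades galactosylceramide, differed by 3.94 ± 0.235 (adjusted p = 0.000341), although its other probe set did not pass (0.36) and the mean of both differed by 2.15. Ppbp, a chemokine stored in platelets, was not in the chemokine list above. It differed by 3.75 ± 0.241 (adjusted p = 0.000494), at 11.33, 11.59 and 11.22 against 7.37, 7.34 and 8.19. Nxpe4 (4.18), Zfp874a, a zinc finger protein (3.71), Cldn34c1, a claudin (3.69), and Smim6, a small membrane protein (3.49), completed the 16, and each passed whichever array was left out.

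Higher in SV129, BC018473 had the largest difference, -5.64 ± 0.225 (adjusted p = 8.61e-05), with BL6 arrays at 4.40, 4.32 and 4.27 and SV129 arrays at 10.17, 9.70 and 10.04. Tmem87a, a membrane protein of the Golgi, read 4.64, 5.87 and 6.28 in BL6 and 10.64, 9.93 and 11.08 in SV129 (-4.95 ± 0.345, adjusted p = 0.000681). Gdpd3, a phosphodiesterase of lysophospholipids, was bright in SV129 at 12.60, 12.84 and 12.87 against 8.42, 7.91 and 7.36 (-4.88 ± 0.241, adjusted p = 0.000152). In all 3 the BL6 arrays lay far below every SV129 array.

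Psca, a GPI-anchored surface protein, differed by -4.34 ± 0.366 (adjusted p = 0.00145), and Pam, which amidates peptide hormones, by -3.77 ± 0.408 (adjusted p = 0.00396). Pam was spread in SV129, at 12.75, 10.95 and 12.66. Nell1, a secreted protein of bone formation (-3.38), Cntn1, a contactin of neurons (-3.23), Rbm45, an RNA-binding protein (-3.01), and H2bc18, a histone gene (-2.81), passed in every fit. Fbp2, the fructose bisphosphatase of muscle, differed by -3.02 ± 0.340 (adjusted p = 0.00461) and lost its call without either normoxic array (-2.86). Tnfrsf14, the receptor HVEM, differed by -2.85 ± 0.603 (adjusted p = 0.0485) and passed only without hypoxic SV129 array 5 among the fits that left out an array, where it ran from -3.57 to -2.37.

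**Figure D5:**
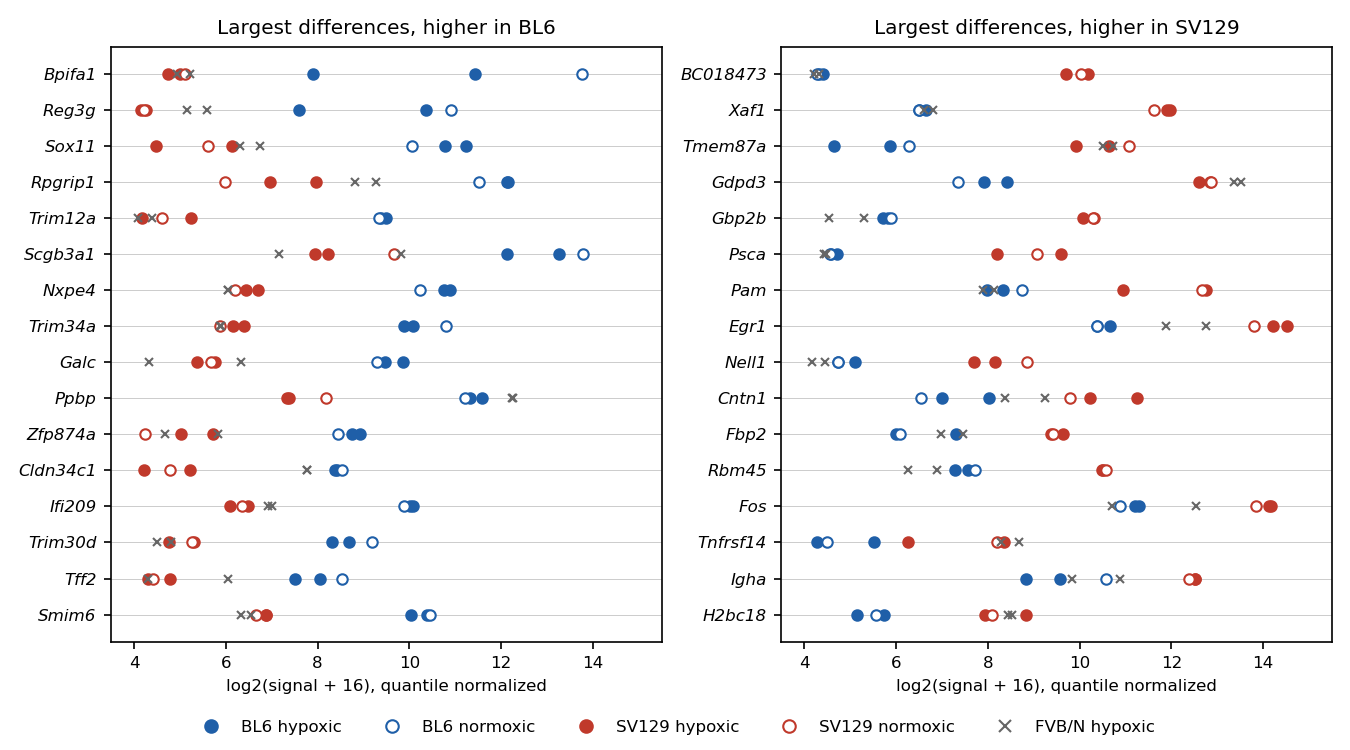
Points are single arrays, with the log2 level on the x axis, for the 16 largest differences in each direction (left, higher in BL6; right, higher in SV129). Blue is BL6, red SV129, open circles are normoxic arrays and grey crosses the hypoxic FVB/N arrays. By the rule that chose these 32 genes, no BL6 array overlaps an SV129 array. Bpifa1 has the widest spread within BL6 (7.89 to 13.76).

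A list of 61 genes known to differ among mouse strains was drawn up from general knowledge. Earlier results of these data were known by then, so the list is no independent evidence. Its 41 genes tested had a median of 0.02. Beside the 3.33% of all genes that passed in either direction, 5 of the 41 were higher in BL6 and 4 in SV129. Besides Trim12a, Trim34a and Tmem87a these included Pttg1, the securin of mitosis, at 13.61, 13.61 and 13.21 in BL6 against 10.42, 10.98 and 10.39 (2.88 ± 0.159, adjusted p = 0.000255, in every fit past the threshold). Casp4, the inflammatory caspase-11, differed by 1.64 ± 0.202 (adjusted p = 0.00656) and Cd84, a lymphocyte surface receptor, by 1.16 (adjusted p = 0.0201). Nnt, the mitochondrial transhydrogenase that the C57BL/6J substrain lacks in working form, was lower in BL6 by 2.09-fold (-1.06 ± 0.196, adjusted p = 0.0305), at 10.19, 9.66 and 9.74 against 11.15, 10.74 and 10.89. Its other probe set passed in the same direction. Wdfy1 (-1.26, adjusted p = 0.0113) and Alad, an enzyme of haem synthesis (-0.81, adjusted p = 0.0314), were also higher in SV129. Casp4, Cd84, Nnt, Wdfy1 and Alad each lost their call in some of the fits that left out an array, Nnt and Alad in 5 of 6.

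Other probe sets and neighbouring genes gave values that the choice of a gene's brightest probe set did not use. Of 294 other tested probe sets of the 429 genes, 241 (82.0%) had the sign of the brightest set, against 59.97% over all genes tested, 86 passed in the same direction and 4 in the opposite one. Along the chromosomes, 60 of the 429 genes (14.0%) had a tested neighbour, on either side, that passed in the same direction. Of all genes, 1.8% and 1.53% passed in each direction. Most genes have a neighbour on each side, so the share to set beside 14.0% is larger than these, and it was not computed. Runs of 3 adjacent tested genes were Fkbp4, A2ml1 and Klrb1b, all higher in BL6, Ppt1, Cap1 and Mfsd2a, all higher in SV129, and Klrk1, Klra17 and Klra8, which went both ways. Bpifa1 and Bpifb1, Trim12a and Trim34a, Ifi209 and Ifi213, and Igtp and Irgm2 were such neighbours too, and each of these pairs consists of related genes.

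The strain difference was compared between hypoxic and normoxic lung with an interaction term, in a fit with 2 residual degrees of freedom in which the lone normoxic arrays are assumed to vary like the hypoxic ones. No probe set passed (0 of 27022 in limma, smallest adjusted p = 1.00), and 273 (1.01%) had an unadjusted p below 0.05. Of the genes with the smallest p, Hspa1b, an inducible heat shock protein, had an interaction of 2.76 ± 0.356. So the size of the strain difference was not shown to depend on the exposure, and with 1 normoxic array per strain only large differences could have been seen.

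The third strain gave a description of which strain stood out for each gene. The mean of the 2 hypoxic FVB/N arrays was nearer to the hypoxic BL6 mean for 207 of the 429 genes and nearer to SV129 for 222. Of the genes higher in BL6, 101 lay on the BL6 side and 131 on the SV129 side, and of those higher in SV129, 106 and 91. Among the 32 largest differences FVB/N was nearer to SV129 for 14 of the 16 higher in BL6, all but Ppbp and Cldn34c1. It was nearer to BL6 for 12 of the 16 higher in SV129, all but Tmem87a, Gdpd3, Tnfrsf14 and H2bc18. For most of the largest differences, then, FVB/N was nearer to the strain of the lower level. Nearer need not mean close: for 118 of the 429 genes FVB/N lay between 25% and 75% of the way from SV129 to BL6, with Egr1 at 53.3%. In a fit over all 9 arrays, 1 of which, the normoxic FVB/N array, also carried kidney transcripts, 721 probe sets (2.67%) separated BL6 from SV129, 588 (2.18%) BL6 from FVB/N and 802 (2.97%) FVB/N from SV129; these comparisons share arrays.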

How the data were processed

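Total RNA of right lung was extracted on Qiagen columns and hybridised to Affymetrix arrays after biotin labelling, per the labels' protocols. Per probe set and array the authors deposited 1 intensity on a linear scale. The values themselves show that the authors scaled each array's intensity to a mean of 500 after leaving out 2% at each end; the software was not given in the sources used here. The series' design text mentions 12 further arrays, which were not analysed here.

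Signals were taken as log2(signal + 16), so fold changes of dim genes are understated, and quantile normalized over 9 arrays. Of 45101 probe sets, 64 controls and the dimmest 40% by mean over the 6 arrays were left out, leaving 27022. Without controls, the platform's annotation paired 34945 of 45037 sets with a single symbol, 932 with several and 9160 with none, and no gene was named from a set with several or none. Of the gene identifiers, 99.4% matched RefSeq's current gene table, which changed 0 symbols. A gene was read through its brightest probe set.

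The model of strain and exposure used limma 3.58.1 (R 4.3.3; lmFit, eBayes with an intensity trend), over 6 arrays and over 5 without hypoxic BL6 array 2, with Benjamini-Hochberg adjustment over all probe sets. The scripts were tested on simulated data. Named genes were the 16 largest differences per direction among genes that passed, did not overlap and held within 1.5 times on the 5 arrays; members of 35 gene lists could be named besides. Members, lists and rules were chosen with earlier results of these data known, so they are no independent evidence. Settings varied were normalization, pseudocount, filter, variance model, array weights, arrays left out, array number as a block, covariates and the probe set used. Promoters came from RefSeq's table.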

Additional observations from a re-analysis of the deposited data

Results flagged for a closer look

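A reversed strain difference was looked for only among the 429 genes that passed and the 5 genes with the smallest unadjusted p of the interaction. In this pattern the hypoxic arrays of BL6 lay wholly on one side of those of SV129 while the normoxic pair lay the other way round. It was found for 5 genes, all picked by the interaction, which favours such a pattern. Its share over all genes was not counted. These are the genes with the smallest unadjusted p of the interaction, none of which passed after adjustment (limma, smallest adjusted p = 1.00). Hspa1b, a heat shock protein, stood at 11.09 and 11.16 in hypoxic BL6 against 9.13 and 8.97 in hypoxic SV129, but at 9.57 against 10.26 in normoxic lung, an interaction of 2.76. Spon2, a secreted matrix protein, had an interaction of 2.70 and H2bc22, a histone gene, of 2.61. Npas2, a circadian transcription factor, had 3.31, with 8.07 and 7.56 against 6.01 and 6.70 in hypoxic and 4.98 against 6.84 in normoxic lung. Thrsp, a regulator of lipid synthesis, had -1.90. Each rests on 1 normoxic array per strain.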

How the results depend on the processing

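The directions of the 137 genes followed held wherever they were measured (133 with pseudocount 1, 98 with the dimmest 60% left out, 135 with normalization over the 5 arrays), except that of Zfp991, higher in SV129, which turned to 0.039 with the mean of its probe sets. That mean moved 14 genes by over 1.5 times and took the call from 22, and pseudocount 64 moved 9. Beside 956 probe sets and 429 genes, leaving out 1 array gave 213 to 1137 and 90 to 513. Array weights gave 2101 and 926. The 4 hypoxic arrays alone gave 206 and 89, and no exposure term gave 548 and 244. With normalization and filter over the 5 arrays, a setting chosen after seeing the data, 306 and 144 passed. Other settings stayed within 1.5 times (704 to 998 probe sets). The array number as a replicate block gave 767 and 351. Same-numbered hypoxic arrays share only a number: their deviations correlated at -0.0464 over 2 pairs. The interaction gave 0 calls in all 4 settings. Of the 137 genes, 48 passed with each array left out in turn, so small differences depend on having all 6 arrays. Without a detection call in the values used, dim genes near the bottom of the scale have no firm level. With the dimmest 60% left out, 20 of the 32 largest differences were still measured and all 20 passed.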

Other observations

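Platelet and megakaryocyte genes, a list drawn up after the values had been seen, were higher in BL6: 7 of 19 tested passed, none fell, and the median was 0.89 (0.82 on 5 arrays). Besides Ppbp (3.75) they were Gp9 (2.36), Itgb3 (1.94), Tubb1, the platelet tubulin (1.91), Clec1b (1.80), Gp1bb (1.64) and Itga2b (0.89). Summed signal over 20 genes was 12702 to 15581 in BL6 and 9091 to 10461 in SV129. Ppbp and Itgb3 passed whichever array was left out, and 3 of the 7 passed without hypoxic BL6 array 2.

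Other families were also listed after their values were seen. Of 6 Schlafen genes tested, which restrain the growth of lymphocytes and other cells, Slfn2 (1.41), Slfn5 (1.31) and Slfn8 (1.17) were higher in BL6. None of these 3 passed every time an array was left out: 1 did without hypoxic BL6 array 2 and 0 without hypoxic BL6 array 5 or either normoxic array. Another Slfn5 probe set passed in the opposite direction (-1.88), and the mean of its sets differed by 0.42 (adjusted p = 0.222). Of 14 regulators of G protein signalling, Rgs5 (-1.57), Rgs4 (-1.50), Rgs2 (-1.37) and Rgs1 (-1.34) were higher in SV129; Rgs5 marks pericytes, and Rgs5 and Rgs4 passed whichever array was left out, Rgs4 at -0.996 with the mean of its probe sets. Of 297 genes with a Zfp symbol 10 were higher in BL6 and 4 in SV129, with a median of -0.01, beside 3.33% of all genes that passed in either direction.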
